A study of Mus musculus with 38 samples.

Results

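Immediate early genes are genes that a cell switches on within minutes of a growth signal or a stress, without first having to make new protein. The 10 followed here are Egr1, Egr2, Fos, Fosb, Jun, Junb, Atf3, Nr4a1, Ier2 and Btg2. Every probe set annotated to exactly 1 of these symbols was taken, which gave 13 of the 45101 probe sets on the array, for 10 of the 18194 genes with such a probe set. They were measured in the whole bone marrow of 38 C57BL/6 mice, 1 array each. The 34 leukaemic mice were lethally irradiated, male or female recipients of syngeneic c-kit+ marrow progenitors. Those progenitors had been infected with a retrovirus carrying MLL-ENL (7 mice), MLL-AF1p (9), MLL-AF10 (8), MLL-GAS7 (5) or MLL-AF9 (5). Their marrow was collected when they were euthanized with leukaemia. The 4 normal mice were wild type, and the labels mention no irradiation or transplant for them. All marrow, leukaemic and normal, had been cryopreserved as cells before RNA was taken with Trizol, and handling times are not given in the sources used here. The promoter that drove the fusion, the number of leukaemic clones per mouse and the share of host cells left in the marrow are likewise not given.

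The products of these genes are mostly transcription factors. Fos, Fosb, Jun and Junb pair through leucine zippers to form AP-1, and Atf3 is a related stress-induced factor. Egr1 and Egr2 are zinc finger factors, Nr4a1 is an orphan nuclear receptor, and Btg2 is an antiproliferative protein that recruits the deadenylation machinery to messenger RNA. ERK signalling to serum response factor at CArG boxes, and CREB at cyclic AMP response elements, are the textbook routes to their promoters. In marrow, Egr1 and the AP-1 factors are known for their part in monocyte and macrophage differentiation, and Nr4a1 for restraining myeloid proliferation. The same genes are also known to respond within minutes to tissue dissociation and other handling. In cryopreserved marrow the level in the animal and the response to handling cannot be told apart.

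Deposited values are linear intensities, which the authors had scaled to a common trimmed mean. Levels below are log2(intensity + 46.1) after each array was moved to the same median of 7.64, and a difference of 1 on this scale is a 2-fold change that understates the change of dim genes. Of the 13 probe sets, 11 passed the filter on dim values (above the array's median on at least 4 arrays), and these cover 9 genes. Egr2 did not pass: 1427682_a_at was above the array's median on 0 of 38 arrays and 1427683_at on 2 of 38, so no test of Egr2 was made. The median intensity of an array ran from 129.2 to 208.3. The leukaemia arrays fell into set 1 (16 arrays) and set 2 (18 arrays) by the mean level of 4 probe sets, those of Arf6, Map3k3, Prrc2a and Rab5c. Set 2 ended at 8.49 and set 1 began at 10.32, a gap of 1.83 against 0.28 for the next largest. The normal arrays, at 8.23 to 10.12, were placed in neither set. MLL-ENL had 4 arrays in set 1 and 3 in set 2, and every other cohort also had arrays in both. Actin signal at the 3' end over the 5' end was 0.314 ± 0.113 (log2, SD, n = 34) in leukaemia and 0.136 ± 0.062 (n = 4) in normal marrow, and 18S signal was 8.58 ± 0.97 and 7.10 ± 0.46 log2.

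The promoters of Fos, Junb and Btg2 are printed because these genes moved together from mouse to mouse, as described further on. They are the RefSeq sequences of build GRCm38.p6, from 250 bases before the annotated start to 50 bases after it, 5' to 3' on the strand of the gene. Capitals mark matches to the searched motifs.
Fos, chr12:85473640-85473939, plus strand: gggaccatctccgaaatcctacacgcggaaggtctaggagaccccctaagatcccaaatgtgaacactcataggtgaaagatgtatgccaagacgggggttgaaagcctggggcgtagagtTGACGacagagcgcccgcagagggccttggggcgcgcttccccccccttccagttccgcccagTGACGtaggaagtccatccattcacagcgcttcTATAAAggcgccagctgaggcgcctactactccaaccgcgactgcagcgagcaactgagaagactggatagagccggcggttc
Junb, chr8:84978699-84978998, minus strand: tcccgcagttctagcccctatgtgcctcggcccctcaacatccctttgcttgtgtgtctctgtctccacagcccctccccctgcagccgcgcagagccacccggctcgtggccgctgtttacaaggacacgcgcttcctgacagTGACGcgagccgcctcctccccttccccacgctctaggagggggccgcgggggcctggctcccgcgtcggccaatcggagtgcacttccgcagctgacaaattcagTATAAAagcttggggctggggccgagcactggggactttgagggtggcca
Btg2, chr1:134079106-134079405, minus strand: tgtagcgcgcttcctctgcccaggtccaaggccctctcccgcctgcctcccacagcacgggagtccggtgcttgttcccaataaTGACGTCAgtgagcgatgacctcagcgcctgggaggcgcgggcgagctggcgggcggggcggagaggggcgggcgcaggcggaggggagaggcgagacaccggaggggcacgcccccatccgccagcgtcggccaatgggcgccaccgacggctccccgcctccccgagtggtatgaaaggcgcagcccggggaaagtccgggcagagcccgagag
The motifs searched on both strands were the CArG box, the cyclic AMP response element TGACGTCA and its core TGACG, the AP-1 sites TGACTCA and TGAGTCA, the EGR site GCGTGGGCG, and the TATA sequences TATAAA and TATATA. The Fos window held the core at positions -129 and -66 from the start and TATAAA at -33. The Junb window held the core at -106 and TATAAA at the start. The Btg2 window held the full response element at -166 to -159, which contains the core on each strand. Of 32851 promoter windows of this length, 20.8% held the core, 1.79% the full element, 17.1% a TATA sequence, 5.2% an AP-1 site, 1.63% a CArG box and 0.612% an EGR site. Of the other members, Egr2 had a CArG box in 4 of its 5 listed windows, but some of these windows overlap and hold the same box. Nr4a1 had 4 copies of the core, Fosb had the core at -60 and Atf3 at -7, and the Jun window had no match. No window of Egr1 or Ier2 was searched. These are matches of letters and not binding sites.

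MLL-ENL marrow stood apart from the other 4 cohorts in Egr1 and Jun. Both rose, Egr1 by 1.41 ± 0.26 (log2, SE) and Jun by 0.76 ± 0.20 on its brighter probe set. The other 7 members tested were not called. Counts of members here and below take each gene's leading probe set, the one with the higher mean where there are 2. Of the 9 members, 2 were called in this comparison, both higher, where 3.83% of all probe sets were called (2.72% higher and 1.11% lower). The median difference of the members was 0.50, beside 0.07 over all probe sets. In an F test for any difference among the 5 cohorts the same genes were called, Egr1 (adjusted p = 0.00547) and Jun (adjusted p = 0.0432 and 0.00616 on its probe sets), against 6.28% of all probe sets. A call throughout means an adjusted p under 0.05 in limma, with the Benjamini-Hochberg adjustment made across the 29004 probe sets that passed the filter.

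Egr1, read by 1417065_at, encodes a factor that translates growth signals into a second wave of transcription. In MLL-ENL marrow its level was 8.13 at the lowest, 9.73 at the median and 10.22 at the highest. MLL-AF1p ran from 7.6 through a median of 8.38 to 10.58, and MLL-AF10 from 7.64 through 8.01 to 8.74. The MLL-GAS7 mice had 7.59, 7.6, 7.86, 8.16 and 8.32. The MLL-AF9 mice had 7.42, 7.65, 8.2, 8.46 and 8.59, and normal marrow had 8.1, 8.53, 8.57 and 9.34. Thus 6 of 7 MLL-ENL mice lay above all 4 normal mice, and MLL-AF1p_804, at 10.58, was the only one of the 27 other leukaemias that did. The exception in the MLL-ENL cohort was MLL-ENL_742, at 8.13. The rise against the other cohorts was 2.66-fold, with a 95% interval of 0.89 to 1.93 on the log2 scale (adjusted p = 0.00133 by limma). It was 1.65 without MLL-ENL_742 and 1.48 without MLL-AF1p_804. Within set 2 the difference was 1.24 (adjusted p = 0.0918) and within set 1 it was 1.54 (adjusted p = 0.092), so its size held in each set while neither passed the threshold. In those smaller fits 115 and 134 of all probe sets were called, against 1110 with all arrays. Against normal marrow Egr1 was 0.93 ± 0.38 higher in MLL-ENL, not called (adjusted p = 0.0505 by limma).

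**Figure D1:**
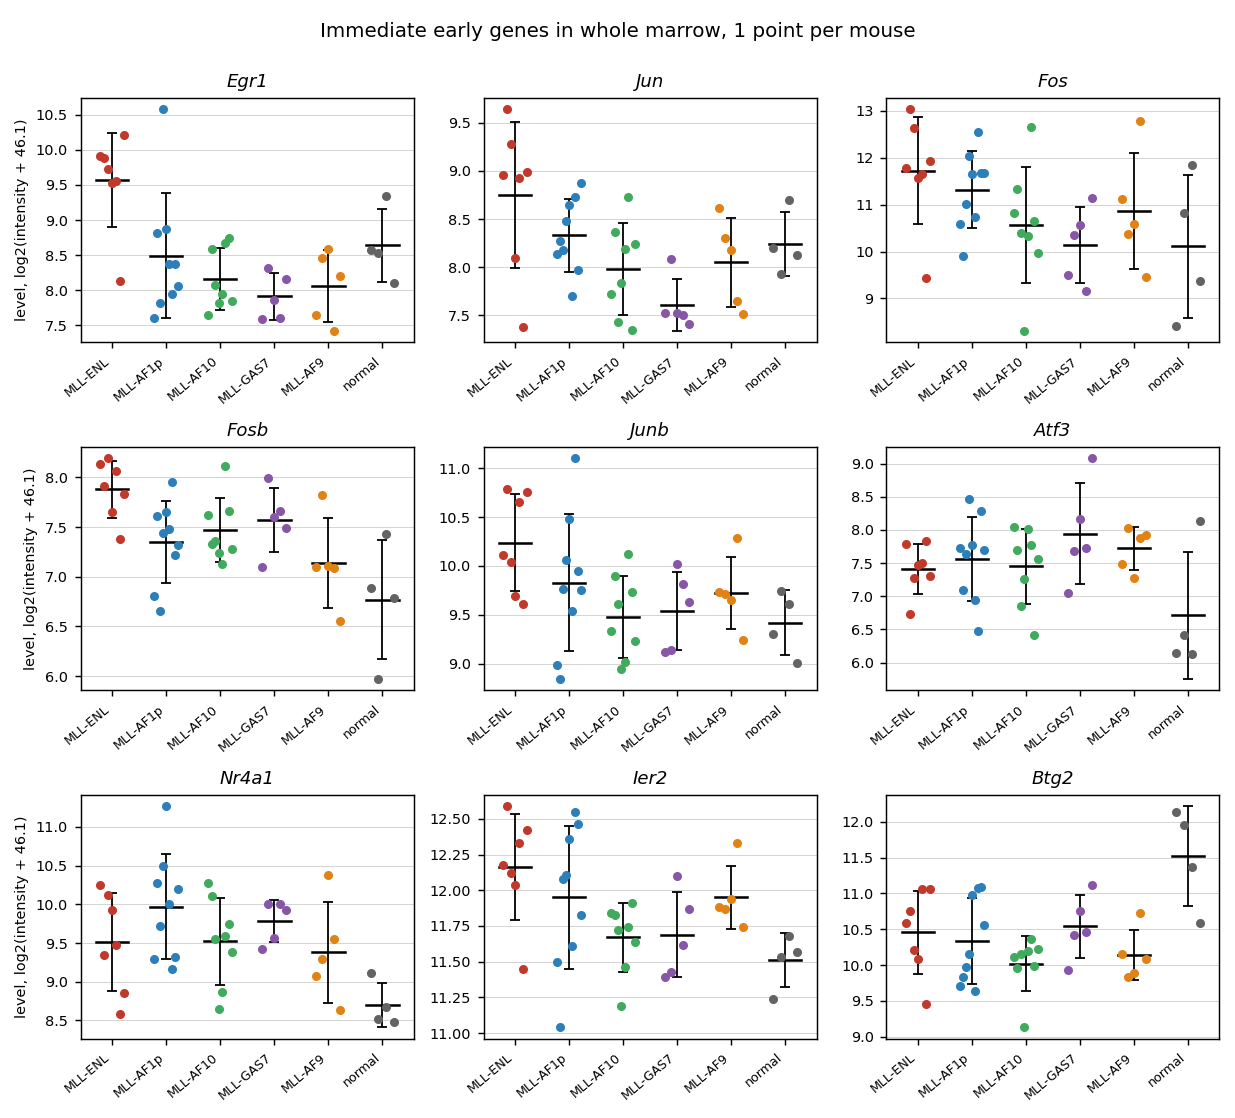
Level of each member gene that passed the filter, on its leading probe set, in every mouse (vertical axes, log2 of intensity plus 46.1, with a separate scale per gene) by group (horizontal axes). Points are mice, thick bars are group means and whiskers are 1 SD; 6 of 7 MLL-ENL mice lie above all 4 normal mice for Egr1, and 34 of 34 leukaemias lie below the normal median for Btg2.

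The other EGR member, Egr2, which is best known for its role in nerve myelination and in T cells, was dim in every group. Its probe sets lay below the array's median on most arrays. On 1427683_at, the brighter of its probe sets, MLL-ENL marrow ran from 5.8 to 8 and the other 27 leukaemias from 6.05 to 7.74, and normal marrow had 6.51, 6.93, 7.11 and 7.22. The groups overlapped.

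Jun, the AP-1 subunit that JNK phosphorylates, is read by 2 probe sets. On 1448694_at MLL-ENL marrow ran from 7.38 through a median of 8.96 to 9.64. MLL-AF1p ran from 7.7 through 8.27 to 8.87 and MLL-AF10 from 7.35 through 8.02 to 8.73. The MLL-GAS7 mice had 7.41, 7.5, 7.53, 7.53 and 8.09, the MLL-AF9 mice 7.51, 7.65, 8.18, 8.3 and 8.61, and normal mice 7.93, 8.13, 8.2 and 8.7. On this probe set 5 of 7 MLL-ENL mice were above all 27 other leukaemias, while MLL-ENL_741 (8.1) and MLL-ENL_742 (7.38) were not. The rise against the other cohorts was 1.69-fold (95% interval 0.35 to 1.17 log2, adjusted p = 0.0295). The probe set 1417409_at showed a larger difference, 1.97 ± 0.38, or 3.90-fold (adjusted p = 0.00307 by limma). On it MLL-ENL ran from 7.02 through 9.43 to 10.57 and the other 27 leukaemias from 5.64 through 7.07 to 8.87, and again 5 MLL-ENL mice were above all the others. The call on 1448694_at was narrow. It was lost when any 1 of MLL-ENL_701, MLL-ENL_702, MLL-ENL_703, MLL-ENL_760 or MLL-ENL_774 was left out (0.61 to 0.73, adjusted p 0.0648 to 0.11) and with the values as deposited (0.66, adjusted p = 0.0657). Without MLL-ENL_742 it was 0.99 (adjusted p = 0.00211). Within set 2 the difference was 0.59 (adjusted p = 0.394) and within set 1 it was 0.86 (adjusted p = 0.114). For 1417409_at the set 1 value was 2.41, still called (adjusted p = 0.0104), and the set 2 value was 1.45 (adjusted p = 0.165). Against normal marrow, Jun in MLL-ENL was 0.51 ± 0.30 higher on 1448694_at, not called (95% interval -0.09 to 1.12, adjusted p = 0.186). On 1417409_at it rose by 1.57 ± 0.56, or 2.97-fold (adjusted p = 0.0269 by limma). That call was lost within set 2 (0.83, adjusted p = 0.278), as deposited (1.37, adjusted p = 0.0529) and without MLL-ENL_702, MLL-ENL_760, normal mouse 1 or normal mouse 3 (1.35 to 1.51, adjusted p 0.0519 to 0.0806), among others.

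**Figure D2:**
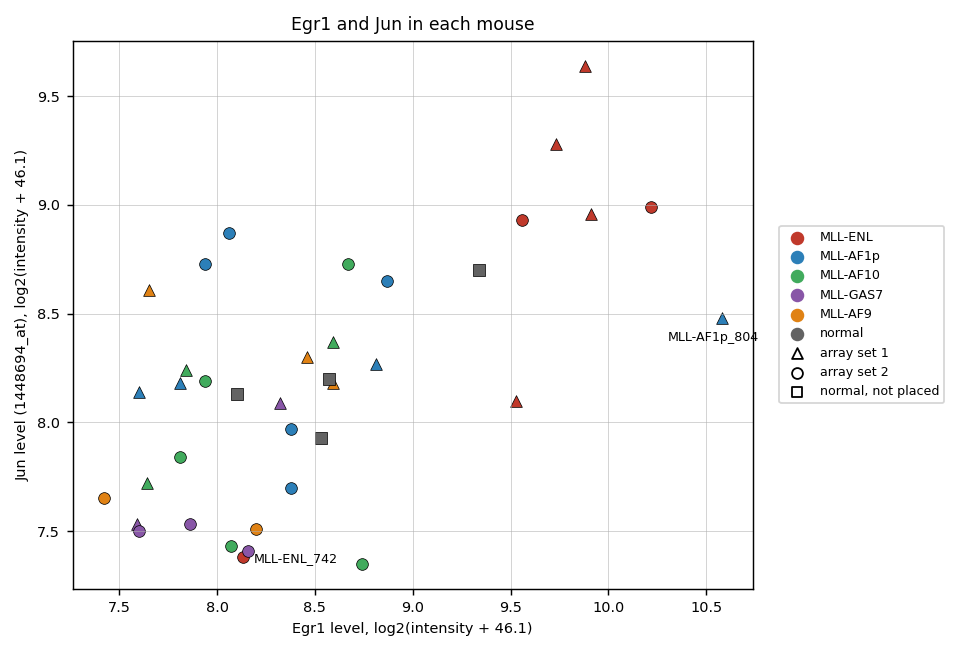
Level of Jun on 1448694_at (vertical axis) against level of Egr1 (horizontal axis), both as log2 of intensity plus 46.1, with 1 point per mouse, colour for the group and shape for the array set. Of the MLL-ENL mice 5, from both array sets, sit at the upper right, with MLL-ENL_741 lower in Jun (8.1), MLL-ENL_742 at the lower left among the other cohorts and MLL-AF1p_804 high in Egr1 (10.58).

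Fos, the partner that gives AP-1 dimers their stability, had the widest range among the leading probe sets, with 8.31 to 13.03 over the leukaemias. Its level ran from 9.44 through 11.78 to 13.03 in MLL-ENL, from 9.9 through 11.65 to 12.54 in MLL-AF1p and from 8.31 through 10.53 to 12.65 in MLL-AF10. The MLL-GAS7 mice had 9.15, 9.49, 10.36, 10.57 and 11.14, and the MLL-AF9 mice 9.45, 10.37, 10.58, 11.11 and 12.79. Normal mice alone spanned 8.41, 9.38, 10.81 and 11.85, a 10.9-fold range that overlapped every cohort. In MLL-ENL, Fos was 1.0 ± 0.44 above the other cohorts (95% interval 0.10 to 1.90, adjusted p = 0.187) and 1.61 ± 0.65 above normal (adjusted p = 0.0509), and neither was called by limma. Leukaemia as a whole was 0.81 ± 0.55 above normal (95% interval -0.31 to 1.93, adjusted p = 0.263), a value that was 0.24 without normal mouse 1 and 1.39 without normal mouse 4.

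Fosb, a close relative of Fos, was dim: it was above the array's median in 13 of 38 mice, all of them leukaemic. It thus passed the filter only through the group in which it was higher. Fosb rose in leukaemia by 0.71 ± 0.20 against normal marrow, or 1.64-fold (adjusted p = 0.00551 by limma). With no filter the difference was called too (adjusted p = 0.00806 by limma). MLL-ENL marrow ran from 7.38 through 7.91 to 8.2 and all 34 leukaemias from 6.56 through 7.48 to 8.2. Normal mice had 5.97, 6.79, 6.89 and 7.43. The groups overlapped, with 19 of 34 leukaemias above all normal mice. The call was lost without normal mouse 2, the lowest (0.44, adjusted p = 0.115). In MLL-ENL alone the rise over normal was 1.11 ± 0.24, or 2.16-fold (adjusted p = 0.000372). Against the other cohorts MLL-ENL was 0.50 ± 0.16 higher, which was not called (95% interval 0.17 to 0.83, adjusted p = 0.0727). It was called with array weights (0.52, adjusted p = 0.0315), without MLL-AF9_308 (0.54, adjusted p = 0.0437) and without MLL-ENL_742 (0.59, adjusted p = 0.0493).

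Junb, a Jun family member that counters Jun in some settings, ran from 9.61 through 10.11 to 10.79 in MLL-ENL. The other 27 leukaemias ran from 8.84 through 9.71 to 11.11, and normal mice had 9.01, 9.3, 9.61 and 9.74. It rose in MLL-ENL against normal by 0.82 ± 0.31, or 1.76-fold (adjusted p = 0.0335 by limma). That call was lost without any 1 of normal mouse 1, normal mouse 3, MLL-ENL_703, MLL-ENL_760 or MLL-ENL_774 (0.68 to 0.78, adjusted p 0.0628 to 0.125), as deposited (0.61, adjusted p = 0.0961), after quantile normalization (0.63, adjusted p = 0.0814), within set 2 (0.93, adjusted p = 0.064) and with 5 arrays left out, those whose hybridisation controls were brightest (0.68, adjusted p = 0.136). It was 0.59 ± 0.21 above the other cohorts, not called (95% interval 0.17 to 1.01, adjusted p = 0.0953). For leukaemia as a whole it was 0.35 ± 0.26 above normal, not called (95% interval -0.18 to 0.87).

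Atf3, which is induced by stress and restrains inflammatory genes, rose in leukaemia by 0.91 ± 0.31, or 1.88-fold (adjusted p = 0.0177 by limma). All 34 leukaemias, at 6.42 through 7.68 to 9.09, lay above the normal median. Of the normal mice 3 had 6.13, 6.15 and 6.41, and normal mouse 3 had 8.13, so that 4 of 34 leukaemias were above all 4. The call was lost without normal mouse 1, 2 or 4 (0.72 to 0.81, adjusted p 0.0747 to 0.119) and with the values as deposited (0.78, adjusted p = 0.0504). Without normal mouse 3 the difference was 1.39 (adjusted p = 0.000704). Atf3 was not higher in MLL-ENL than in the other cohorts: the difference was -0.26 ± 0.25 (95% interval -0.76 to 0.25).

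Nr4a1, the nuclear receptor also called Nur77, rose in leukaemia by 0.94 ± 0.29, or 1.92-fold (adjusted p = 0.0101 by limma). The leukaemias ran from 8.58 through 9.58 to 11.27, and the normal mice had 8.48, 8.52, 8.67 and 9.11. Of 34 leukaemias, 28 were above all normal mice and 33 above the normal median. MLL-AF1p had the highest mean, 9.97 ± 0.68 (SD, n = 9), and all 9 of its mice exceeded normal marrow (1.27 ± 0.33, 2.42-fold, adjusted p = 0.00267). MLL-ENL was -0.16 ± 0.23 from the other cohorts (95% interval -0.63 to 0.32). Without the same 5 arrays the difference in leukaemia was 0.84 and no longer called (adjusted p = 0.0645).

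Ier2, a small nuclear protein of the immediate early response, was bright and steady. It ran from 11.45 through 12.18 to 12.59 in MLL-ENL and from 11.04 through 11.83 to 12.55 in the other 27 leukaemias, and normal mice had 11.24, 11.53, 11.57 and 11.68. It rose in MLL-ENL against normal by 0.66 ± 0.22, or 1.58-fold (adjusted p = 0.0172 by limma), a call that was lost without normal mouse 1 (0.57, adjusted p = 0.0708), as deposited (0.45, adjusted p = 0.0718), after quantile normalization (0.36, adjusted p = 0.147) and within set 2 (0.56, adjusted p = 0.116). In leukaemia as a whole it was 0.38 ± 0.18 above normal, not called (95% interval 0.00 to 0.75, adjusted p = 0.108), but called with array weights (0.43, adjusted p = 0.0318).

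Btg2 was the 1 member that fell. On 1448272_at leukaemias ran from 8.89 through 9.94 to 10.8 and normal mice had 11.3, 11.74, 12.28 and 12.37. There was no overlap: 34 of 34 leukaemias lay below all normal mice. It fell by 2.0 on the log2 scale (SE 0.24), or 4.0-fold (adjusted p = 1.1e-08 by limma). On 1416250_at leukaemias ran from 9.13 through 10.18 to 11.12 and normal mice had 10.59, 11.37, 11.96 and 12.14. This probe set fell by 1.22 (SE 0.27), or 2.33-fold (adjusted p = 0.000355), with 24 of 34 leukaemias below all normal mice. The fall on 1448272_at passed the threshold in each cohort against normal, from -1.67 ± 0.30 in MLL-GAS7 to -2.22 ± 0.27 in MLL-AF10. MLL-ENL was 0.21 ± 0.21 and -0.08 ± 0.19 from the other cohorts on 1416250_at and 1448272_at, and neither was called.

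Against normal marrow, then, 4 of the 9 members were called, Fosb, Atf3 and Nr4a1 higher and Btg2 lower. Of these, Fosb and Atf3 were dim and passed the filter through leukaemic arrays. Over all probe sets 36.9% were called (24.9% higher and 12.1% lower), so 4 of 9 is close to the background. The median difference of the members was 0.38, beside 0.14 over all probe sets. Egr1 (-0.20 ± 0.32, 95% interval -0.84 to 0.45) and Jun on 1448694_at (-0.09 ± 0.25, 95% interval -0.60 to 0.42) were not called. The 5 cohorts share the 4 normal mice, and their values are set side by side. Btg2 fell in each on both probe sets. Within set 2 the call on 1416250_at was lost in MLL-ENL, MLL-AF1p, MLL-GAS7 and MLL-AF9 (-1.11 to -0.74, adjusted p 0.0895 to 0.235), while that on 1448272_at was kept. In MLL-ENL, 4 members were called (against 35.4% of probe sets, 25.1% higher and 10.3% lower), the others being Fosb, Junb and Ier2, all higher on leading probe sets, while Jun was called on 1417409_at alone. This count was 8 without MLL-ENL_742 and 1 without normal mouse 1. In MLL-AF1p, 2 were called (against 31.9%, 20.6% higher and 11.3% lower), with Nr4a1 higher. In MLL-AF10, 2 were called (32.7%, 21.9% higher and 10.8% lower), with Fosb higher by 0.70 ± 0.24, a call lost as deposited (0.58, adjusted p = 0.0853), within set 1 (0.64, adjusted p = 0.168) and without normal mouse 2 (0.43, adjusted p = 0.186). In MLL-GAS7, 4 were called (22.6%, 13.3% higher and 9.33% lower), with Fosb (0.80 ± 0.26), Atf3 (1.23 ± 0.39) and Nr4a1 (1.09 ± 0.37) higher, a count of 0 without normal mouse 2. The Atf3 value in MLL-GAS7 was 0.66 within set 1 (adjusted p = 0.391). In MLL-AF9, 2 were called (27.7%, 18.7% higher and 9.02% lower), with Atf3 higher by 1.02 ± 0.39. The Atf3 call held in 23 of 38 fits with an array left out and under 5 of 11 alternatives; it was lost as deposited (0.87, adjusted p = 0.106), after quantile normalization (0.99, adjusted p = 0.0547) and within set 2 (1.2, adjusted p = 0.133) and set 1 (0.90, adjusted p = 0.126).

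**Figure D3:**
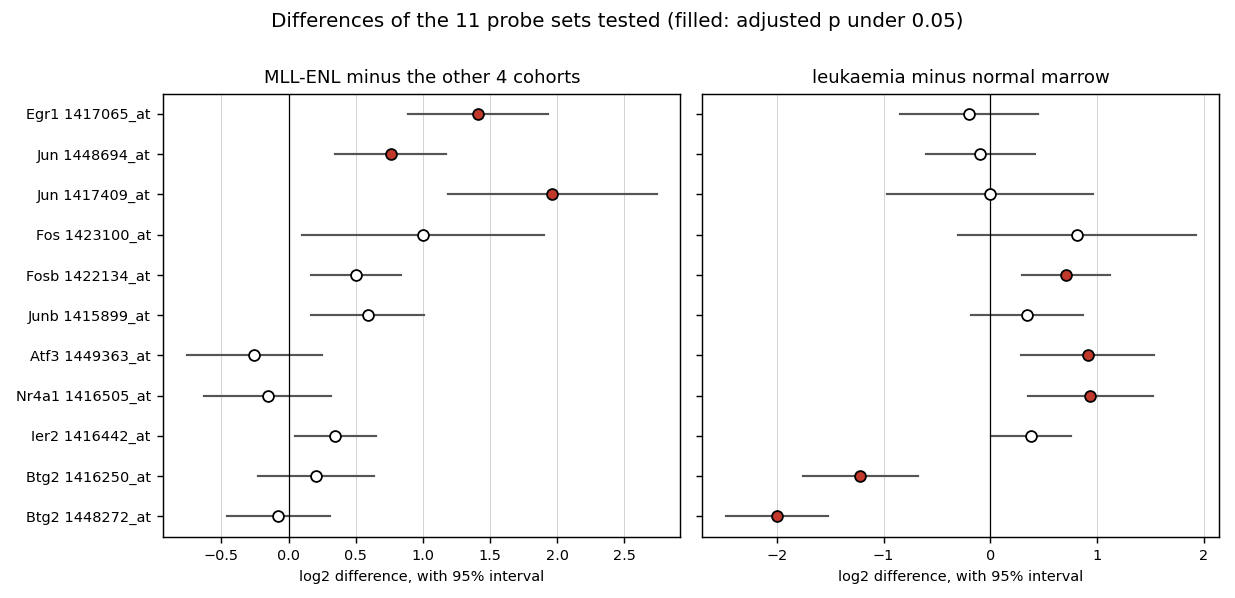
Log2 difference (horizontal axes) of the 11 probe sets tested (vertical axis) for MLL-ENL minus the other 4 cohorts (left panel) and leukaemia minus normal marrow (right panel). Points are limma estimates, lines are 95% intervals and filled points are called; Egr1 and Jun are filled on the left, and Fosb, Atf3, Nr4a1 and Btg2 on the right.

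No member was called when any other cohort was set against the rest. For MLL-AF1p, MLL-AF10, MLL-GAS7 and MLL-AF9 against the other 4, limma called 0 members, where 1.26%, 0.445%, 3.45% and 0.355% of all probe sets were called. At an unadjusted p under 0.05 there were 0, 0, 2 and 1 on leading probe sets, and Jun on 1417409_at added -0.82 ± 0.37 in MLL-AF10 (95% interval -1.56 to -0.08) and -1.08 ± 0.44 in MLL-GAS7. The 2 in MLL-GAS7 were Egr1 (-0.66 ± 0.29) and Jun (-0.67 ± 0.23), both with MLL-GAS7 lowest of the 5 cohort means. The 1 in MLL-AF9 was Fosb (-0.43 ± 0.19). The share of all probe sets at this unadjusted threshold was not counted, so these values are descriptions and not calls.

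Whole marrow holds many cell types, and fewer cells of a type cannot be told apart from less RNA per cell. In the comparison of leukaemia with normal marrow, markers of most cell types were also called, counted here over the markers that passed the filter. Most of the markers called were lower. Over all probe sets 36.9% were called (24.9% higher and 12.1% lower). B cell markers were lower in 7 of 7, with summed intensities of 1276 to 5151 over the cohorts and 10681 to 20395 in normal marrow. Erythroid markers were lower in 5 of 6, at 501 to 1583 in leukaemia and 57561 to 87467 in normal marrow, and 4 of these 6 had a median below the array's median in each cohort, against 1 of 6 in normal marrow. Megakaryocyte markers were lower in 4 of 5, macrophage markers in 6 of 6, T and NK cell markers in 5 of 6, stromal markers in 4 of 5 and mature neutrophil markers in 5 of 7. Monocyte markers were higher in 7 of 7, at 32675 to 117729 in leukaemia and 16481 to 29937 in normal marrow, and so were the MLL fusion targets Hoxa9, Hoxa10 and Meis1 (3 of 3) and 4 of 6 myeloid progenitor markers. Between MLL-ENL and the other cohorts fewer markers were called, beside 3.83% of all probe sets (2.72% higher and 1.11% lower). All 7 mature neutrophil markers had a negative difference, with a median of -1.09, and 2 were called (Mmp8 at -2.02 ± 0.36 and Itgb2l at -1.15 ± 0.32), with sums of 10429 to 72976 in MLL-ENL, and 13502 to 245602 over the other cohorts. Monocyte markers were called in 0 of 7, with a median of -0.15 and sums of 37446 to 71340 in MLL-ENL, and 32675 to 117729 elsewhere. No marker of B cells, erythroid cells, macrophages, T and NK cells, megakaryocytes or stroma was called there. At that background share, the lack of calls in lists this short does not show that these cell types were alike. The part of these cell types in the levels of the immediate early genes was not tested.

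Other genes of the same response were followed by lists. Of 36 further immediate early genes 30 passed the filter. In MLL-ENL against the other cohorts 4 of the 30 were called, 3 higher and 1 lower, beside 3.83% of all probe sets (2.72% higher and 1.11% lower), and the median difference was 0.01. Gadd45b, a stress sensor, rose by 1.09 ± 0.18 (adjusted p = 0.000597). Ppp1r15a, which relieves the translational block of the stress response, rose by 0.68 ± 0.16, and Dusp2, a phosphatase that switches ERK off, by 0.66 ± 0.17. Zfp36l1, an RNA-binding protein that speeds decay of AU-rich messages, fell by 1.38 ± 0.38. Against normal marrow 13 of the 30 were called, 5 higher and 8 lower (median -0.13), which is near the 36.9% of all probe sets. They were led by Ppp1r15a, which fell by 4.13 ± 0.20, or 17.5-fold (adjusted p = 3e-19), and Zfp36l1, which fell by 1.88 ± 0.47. Sgk1, a kinase induced by serum and glucocorticoids, fell by 1.29 ± 0.29, and Rhob, a small GTPase, rose by 1.41 ± 0.19.

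Of 20 genes of the signalling upstream and of the EGR corepressors, 16 were tested. In MLL-ENL against the other cohorts 1 of 16 was called, beside 3.83% of all probe sets: Nab2, a corepressor that binds EGR proteins and is itself known as an EGR1 target, which rose by 1.0 ± 0.17, or 2.01-fold (adjusted p = 0.000797). In MLL-GAS7, Nab2 fell by 0.78 ± 0.20 against the other cohorts (adjusted p = 0.0189 by limma), while Egr1 was not called there (-0.66, adjusted p = 0.227). In MLL-AF1p, MLL-AF10 and MLL-AF9, 0 of 16 genes of this list were called against the other cohorts. Over all probe sets 1.26%, 0.445% and 0.355% were called there, so 0 of 16 is near the background. Whether Nab2 followed Egr1 was not tested. Nab2 in MLL-ENL also exceeded normal marrow (1.05 ± 0.25, adjusted p = 0.00121). Against normal, 8 of 16 were called in leukaemia, 6 higher and 2 lower, beside 36.9% of all probe sets (24.9% higher and 12.1% lower), among them the ETS factor Elk3 (0.93 ± 0.20), the kinase gene Mapk8 that encodes JNK1 (0.89 ± 0.12), Nab1 (0.70 ± 0.12) and Map2k1, which encodes MEK1 (0.46 ± 0.14). The list had a median of 0.24.

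The AP-1 dimer partners gave 0 calls among 11 in MLL-ENL against the other cohorts. With 3.83% of all probe sets called there, 0 of 11 is near the background. In leukaemia against normal 5 of 11 were called, 2 higher and 3 lower (median -0.09), near the 36.9% of all probe sets. Maf (-1.41 ± 0.28) and Mafk (-1.07 ± 0.12) fell, and Batf (0.94 ± 0.18) and Atf7 (0.87 ± 0.24) rose. Heat shock genes, followed because they too respond to handling, were called in 2 of 9 in MLL-ENL against the other cohorts, beside 3.83% of all probe sets, Hsph1 (0.81 ± 0.22) and Dnaja1 (0.66 ± 0.14), both higher, and the list had a median of 0.44. Their summed intensity was 51848 to 70316 in MLL-ENL and 33756 to 58080 over the other cohorts. In leukaemia against normal 4 of 9 were called, close to the 36.9% of all probe sets, with Hspe1 (0.87 ± 0.19) and Hspa8 (0.56 ± 0.15) higher and Dnajb1 (-0.99 ± 0.17) and Hsph1 (-0.73 ± 0.27) lower. The part of handling in the difference between cohorts was not tested.

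Within cohorts the members varied together from mouse to mouse, most of all Ier2, Junb, Btg2 and Fos. With each cohort's mean taken away, the 34 leukaemias gave 36 pairs among the 9 genes, of which 33 had a positive correlation and 7 an r over 0.5. The median was 0.34, from -0.15 to 0.87, beside 0.02 for the members with all other genes. Ier2 and Junb had r = 0.87 (Spearman 0.86), 0.84 without the 2 mice farthest from the Junb median, and were each other's closest gene of 13332. Their r was 0.90 within set 1 and 0.86 within set 2. Ier2 and Btg2 had r = 0.81, Junb and Btg2 0.75, Fos and Ier2 0.74, Fos and Junb 0.71, Fos and Btg2 0.70, and Fos and Jun 0.53, the last falling to 0.42 without the 2 mice farthest in Fos. Thus Btg2 varied with Fos, Junb and Ier2 between leukaemic mice although it was lower in leukaemia than in normal marrow and they were not called. Egr1 and Jun, the pair that was high in MLL-ENL, had r = 0.37 within cohorts, and 0.23 without the 2 mice farthest in Egr1. Atf3 was near 0 with every member, from -0.15 with Fosb to 0.19 with Btg2.

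**Figure D4:**
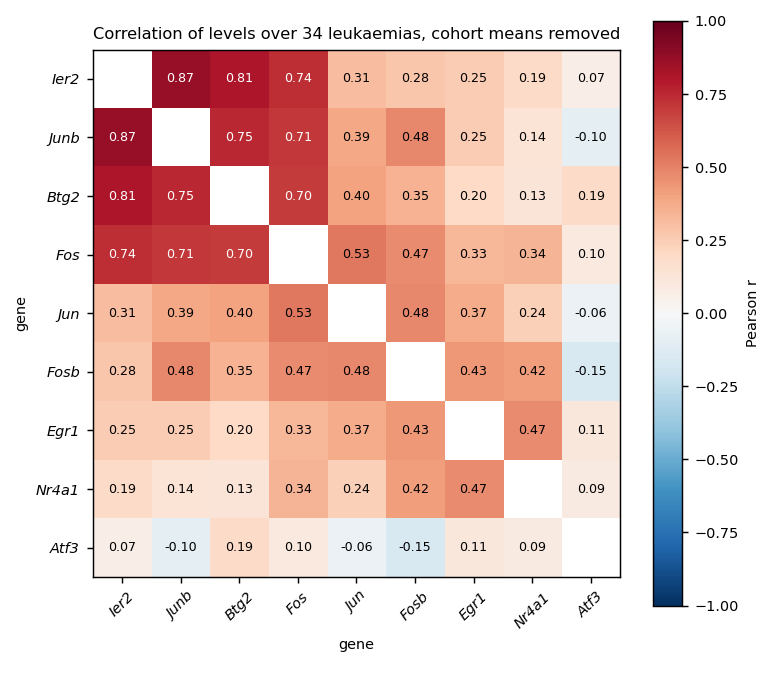
Pearson correlation (colour and number) between the levels of each pair of member genes over the 34 leukaemic mice, after each cohort's mean was removed, with genes on both axes. Ier2, Junb, Btg2 and Fos form a block of 0.70 to 0.87 at the upper left, and Atf3 in the last row lies between -0.15 and 0.19.

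Outside the members, the gene closest to Fos over these 34 mice was Zfp36 (r = 0.87), which encodes tristetraprolin, an RNA-binding protein of the same early response, followed by the antiproliferative gene Btg1 (0.82) and Card19 (0.82). Zfp36 was also next closest to Junb (0.87) and Btg2 (0.80), followed for both by Ier3 (0.77), a survival gene of the early response. Nr4a1 was closest to Metrnl (0.78), which encodes a secreted cytokine, then Gngt2 (0.77), a G protein subunit, and Klf2 (0.73), a zinc finger factor. Metrnl was also closest to Fosb (0.59), with Tnfrsf9 (0.59) and Agpat4 (0.55) next. For Egr1 these were Stc1 (0.61), Brox (0.61) and Fam126a (0.58), for Jun Lats2 (0.62), Slc39a3 (0.61) and 2610024D14Rik (0.61), and for Atf3 Magea7-ps (0.68), Rnf222 (0.64) and Bcar3 (0.63). After its member neighbours, Ier2 was closest to Mfsd14b (0.81). The members also varied with array properties: the shift applied to an array correlated with Ier2 (r = 0.53) and Junb (0.43), 18S signal with Jun (0.48), and hybridisation control signal with Atf3 (0.42). Summed cell markers correlated with members too, among them monocyte markers with Fos (0.51) and mature neutrophil markers with Btg2 (0.44). For Nr4a1 the values were 0.44 with macrophage markers and 0.42 with erythroid markers. Genes and mice that share an array are not independent, and these correlations are descriptions without a test.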

How the data were processed

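Total RNA from cryopreserved whole marrow of 38 mice was labelled with biotin and hybridised to Affymetrix arrays, 1 per mouse. The values deposited by the authors are linear intensities, and on every array the mean trimmed by 2% at each end was 500. The software and its settings were not given in the sources used here. All 38 columns were read (0 left out), and the number of mice limits precision. Symbols came from the platform annotation; 34754 of 34958 probe sets with 1 symbol matched RefSeq by Entrez identifier.

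Intensities were taken as log2(intensity + 46.1), 46.1 being the 25th percentile, and every array was moved to a common median because array medians spanned 0.537. A probe set was kept if above the median of the array on 4 arrays or more (29004 kept, 23902 of them with 1 symbol, for 13333 genes). One model of 6 group means was fitted with limma 3.58.1 in R 4.3.3 (32 residual degrees of freedom, prior 5.12), with 2-sided tests and Benjamini-Hochberg adjustment over all 29004. Leukaemia is the unweighted mean of the 5 cohort means. Nothing in the labels says more on replicates than 1 mouse per array. The leading probe set of a gene is the kept one with the highest mean. All members were named, up to 4 called genes per list and comparison, and the 3 genes most like each member. The members, lists and array sets were chosen with earlier results of these data known. Correlations used leading probe sets after cohort means were removed.

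On simulated data with 29004 probe sets, MLL-ENL against the other cohorts recovered 38.8% of 1.5-fold, 91% of 2-fold and 100% of 4-fold changes, and leukaemia against normal 14.9%, 70.1% and 100%. The simulated probe sets varied independently, and 66 or 67 were changed at each fold, far fewer than were called in the data. Recovery in the real comparisons can therefore differ from these values. Alternatives were other scalings, pseudocount 16, no filter, 1 probe set per gene, dropping probe sets open to several genes, array weights, each array left out, array sets, and leaving out 5 arrays.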

Additional observations from a re-analysis of the deposited data

Results flagged for a closer look

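In the MLL-ENL cohort, mouse MLL-ENL_742 stood apart from the other 6 in Egr1 (8.13, against 9.53 to 10.22) and in Fos (9.44, against 11.57 to 13.03). It was also the lowest of its cohort on both Jun probe sets and in Fosb, Junb, Nr4a1, Ier2 and Btg2, and not in Atf3, where it was the highest (7.83). In the MLL-AF1p cohort MLL-AF1p_804 had an Egr1 level of 10.58, against 7.6 to 8.87 in the other 8. In MLL-GAS7, Jun on 1448694_at was 8.09 in MLL-GAS7_407, with the other 4 at 7.41 to 7.53. In MLL-AF10, Btg2 on 1416250_at was 9.13 in MLL-AF10_783A. In normal marrow, Atf3 was 8.13 in normal mouse 3. These 6 values came from 66 group and probe set pairs checked, and a 95% critical value singles out about 1 in 20 by chance.

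The difference between MLL-ENL and the other cohorts was singled out for Egr1 (1.41) and for Jun on 1417409_at (1.97) and on 1448694_at (0.76), by limma's test of that difference. No cause was tested for any of these values.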

How the results depend on the processing

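The direction of a cohort's or leukaemia's difference and the count of members called, on leading probe sets, were recomputed under 11 alternatives, 4 of them chosen after the data were seen (array set as a term, each array set alone, and 5 arrays left out), and with each array left out. Scaling moved all probe sets: of 10713 called in leukaemia against normal 7208 were higher, with the values as deposited 5519 of 10292 and after quantile normalization 6348 of 10748, the median going to 0.01 and 0.08. In MLL-ENL against the other cohorts 789 of 1110 were higher, and 595 of 1340 and 556 of 1142. Members called in leukaemia against normal numbered 3 to 5 under the 11 alternatives (3 as deposited and without the 5 arrays, 5 with array weights), and 2 to 4 with an array left out (2 without normal mouse 2). Among the cohorts the count was 1, not 2, as deposited, after quantile normalization, with pseudocount 16, without a filter and without the 5 arrays, and 0 in either array set alone (1 to 2 with an array left out). For MLL-ENL against the others it was 1 as deposited and 0 in either array set alone (1 to 3), though Jun on 1417409_at stayed called as deposited (1.87) and in set 1 alone (2.41). Against normal, MLL-ENL gave 2 as deposited and after quantile normalization, 7 with array weights, and 1 and 7 in set 2 and set 1 alone (1 to 8). MLL-AF1p gave 4 with pseudocount 16 and with 1 probe set per gene, and 5 with array weights (2 to 4). MLL-AF10 gave 1 as deposited (1 to 3). MLL-GAS7 gave 1 in set 1 alone and 2 without the 5 arrays (0 to 4), and against the other cohorts 0 to 1 with an array left out. MLL-AF9 gave 1 as deposited, after quantile normalization, without a filter, without probe sets open to several genes and in set 1 alone, and 0 in set 2 alone (1 to 2). The array sets alone hold fewer mice. The cause of the other changes was not tested.

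Values near 0 changed sign. Jun on 1417409_at in leukaemia against normal was 0.01 after quantile normalization, 0.12 with array weights, 0.01 with the array set as a term and 0.20 in set 1 alone, and -0.14 to 0.14 with an array left out. Jun on 1448694_at was 0.07 in set 1 alone (-0.20 to 0.06), and Egr1 was -0.37 to 0.04 with an array left out. In MLL-ENL against the other cohorts Nr4a1 was 0.12 in set 1 alone, and Btg2 on 1448272_at was 0.05 with array weights and 0.08 in set 1 alone (-0.18 to 0.08). None of these was called. Planned sets read from hybridisation controls, headers or labels could not be formed, since none of these showed any, and the sets from 4 probe sets replaced them. No paired analysis was possible because the groups share no replicate numbers. Changes of 2-fold or less can be missed, above all against 4 normal mice. In leukaemia against normal 70.1% of simulated 2-fold changes were recovered, and single cohorts against normal were not simulated.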
